A study of Mus musculus with 36 samples.

Results

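The comparison described here asks whether theta-burst stimulation changed transcript levels by a different amount in hippocampal slices of T41B mice than in those of WT mice, with all mice on vehicle. It used 16 of the 36 libraries and 8 of the 18 mice of the study. Each of the 4 WT and 4 T41B mice gave a stimulated slice and a sham slice, the difference between these slices was taken within each mouse, and the differences of the genotypes were compared. WT mice were C57BL/6. T41B mice carried Thy1-hAPPLond/Swe (Line 41), in which the neuronal Thy1 promoter cassette drives human APP bearing the London and Swedish mutations. All 8 mice had been gavaged with vehicle for 3 months, beginning at 13 months of age, and slices of the right hippocampus were cut at 16 months. A stimulated slice received theta bursts in 3 trains, each of 10 bursts spaced by 200 ms, with 4 pulses at 100 Hz in a burst. A sham slice (noSTIM) spent the same time without them, and both were then flash frozen. The replicates are separate mice per the labels, and the 2 slices of a pair carry the same mouse number.

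Theta-burst stimulation imitates a rhythm of hippocampal firing and induces long-term potentiation, a lasting gain in synaptic strength. Strongly active neurons transcribe immediate-early genes such as Fos and Egr1 and, after them, effectors such as Bdnf. Microglia, the resident macrophages of the brain, gather at amyloid plaques, where they lower homeostatic genes such as P2ry12 and raise genes of lysosomes and lipid handling. Microglia also answer injury signals through NF-kappaB and interferon pathways, which drive cytokines, chemokines and antiviral genes. Transcripts of neurons, glia and vessels are mixed in a slice, and fewer cells of a type and less RNA per cell cannot be told apart.

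Total expected counts ran from 13260592 to 23062895 per library, and mitochondrial genes took 2.46% to 5.07% of them. Thy1 ran from 281 to 396 CPM (counts scaled to a common library size) in the 8 WT libraries and from 1028 to 2529.9 CPM in the 8 T41B libraries, without overlap, and App ran from 1056 to 1399.6 CPM over all 16. Summed markers of hippocampal subfields ran from 874 to 1272 CPM, and those of thalamus and habenula from 87.4 to 151 CPM. Batches A and C each hold 1 mouse of each genotype, while batch E holds only WT mice (Mouse1509 and Mouse1513) and batch G only T41B mice (Mouse1551 and Mouse1553). Libraries of batches E and G carried choroid plexus transcripts at different levels in the slices of a pair, so these transcripts are set apart at the end. The stimulated slice of WT Mouse1524 had the fewest genes detected (23759) and the lowest scaling factor (0.93).

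The response differed between genotypes for few single genes. Of 18513 genes tested, 5 passed an adjusted p under 0.05 in edgeR's quasi-likelihood test, which is 0.027% of them. A response is called larger or smaller by its signed log2 fold change, so a deeper negative value counts as smaller and a value nearer 0 than a negative one as larger. The response of 4 genes (0.0216%) was larger in T41B mice: Malt1, Ccrl2, Daxx and Mmp14. It was smaller in T41B mice for 1 gene (0.0054%), the choroid plexus transporter Slc4a5. At an unadjusted p under 0.05 there were 1383 genes with a larger response in T41B mice (7.47%) and 928 with a smaller one (5.01%). Counts of list members at that level are to be read against these shares. All 4 T41B mice lay above all 4 WT mice for 922 genes (4.98%) and below them for 513 (2.77%), together 7.75%. The median interaction, the T41B log2 fold change minus the WT one, was 0.01 over all genes, and 51.1% of the values were positive.

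**Figure D1:**
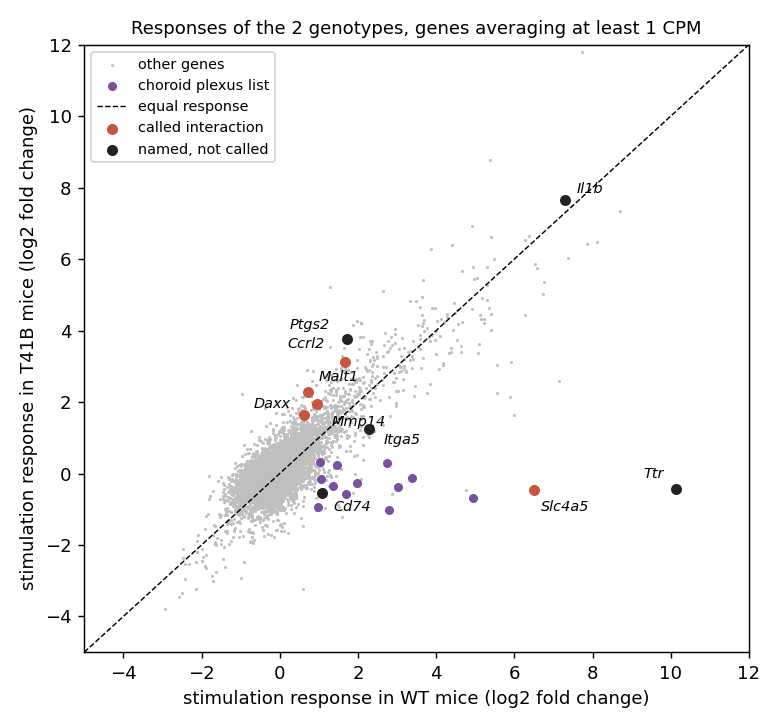
Stimulation response in WT mice (horizontal axis) against that in T41B mice (vertical axis), both as log2 fold changes of stimulated over sham slices from the edgeR fit, for 16137 genes averaging at least 1 CPM. The dashed line marks equal responses. Malt1, Ccrl2, Daxx and Mmp14 lie above it, while Slc4a5 and the other choroid plexus genes lie below it.

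The starts of Daxx, Ccrl2 and Mmp14 are shown because these are 3 of the 4 genes with a larger response in T41B mice. The sequence of Malt1, the other one, was not analysed here. Each line gives 250 bases before and 50 bases after a RefSeq transcription start of build GRCm38.p6, 5′ to 3′ on the gene's strand, the first start the table lists where it lists several. Daxx lies at chr17:33909195-33909494 (+), Ccrl2 at chr9:111057469-111057768 (-) and Mmp14 at chr14:54431348-54431647 (+).
Daxx: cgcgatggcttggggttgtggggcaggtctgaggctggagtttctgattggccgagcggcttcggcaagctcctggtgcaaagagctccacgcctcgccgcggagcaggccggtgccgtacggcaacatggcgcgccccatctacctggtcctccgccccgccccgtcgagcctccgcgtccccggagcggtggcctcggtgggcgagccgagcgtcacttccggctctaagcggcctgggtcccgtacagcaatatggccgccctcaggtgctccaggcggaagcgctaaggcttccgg
Ccrl2: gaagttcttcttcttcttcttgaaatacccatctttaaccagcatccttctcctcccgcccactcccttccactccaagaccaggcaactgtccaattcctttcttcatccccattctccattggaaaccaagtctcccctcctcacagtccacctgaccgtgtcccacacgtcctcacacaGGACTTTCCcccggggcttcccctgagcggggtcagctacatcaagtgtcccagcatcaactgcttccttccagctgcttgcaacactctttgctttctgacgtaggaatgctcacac
Mmp14: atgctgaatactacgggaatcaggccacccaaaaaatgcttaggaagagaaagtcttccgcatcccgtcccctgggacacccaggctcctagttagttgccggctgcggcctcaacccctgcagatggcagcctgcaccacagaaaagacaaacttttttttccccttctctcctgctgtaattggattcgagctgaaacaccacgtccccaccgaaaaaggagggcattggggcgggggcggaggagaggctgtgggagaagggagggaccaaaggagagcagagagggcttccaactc
Capitals mark a match to GGNNTTTCC, letters like those NF-kappaB binds, searched on both strands. The Ccrl2 window holds 1 match, 68 bases before the start, and the other 2 windows hold none, against 5.82% of all 32851 promoter windows of this length. A match is a description of the letters and not of binding.

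Malt1 encodes the paracaspase that links CARD and BCL10 signaling complexes to NF-kappaB. In sham slices it held 14.6, 19.5, 15.4 and 13.2 CPM in the WT mice (Mouse1509, Mouse1513, Mouse1522 and Mouse1524), and 21.3, 22.9, 13.2 and 16.9 CPM in the T41B mice (Mouse1510, Mouse1551, Mouse1553 and Mouse1579). In stimulated slices it held 29.7, 31.2, 22.4 and 20.9 CPM in WT mice and 77, 118, 82.3 and 81.3 CPM in T41B mice, in the same order, which is used throughout. Sham levels of the genotypes overlapped, and each stimulated T41B slice stood above each stimulated WT slice. The stimulation log2 fold change was 0.73 (SE 0.12) in WT and 2.28 (SE 0.12) in T41B mice, an interaction of 1.55 (SE 0.16, edgeR adjusted p = 0.0065). Within batch A the T41B mouse exceeded the WT mouse by 1.29 on the log2(CPM + 1) scale, and within batch C by 1.58.

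Ccrl2 encodes an atypical chemokine receptor that binds chemerin and presents it to other cells. Its sham levels were 3.67, 2.52, 3.31 and 3.01 CPM in WT mice and 6.34, 12.3, 7.22 and 7.62 CPM in T41B mice, so the genotypes were already apart before stimulation. Stimulated slices held 9.40, 9.95, 10.6 and 10.1 CPM in WT mice and 60.6, 109, 71.1 and 52.3 CPM in T41B mice. The stimulated WT slices fell in a narrow range that overlapped the sham T41B slices, while stimulated T41B slices stood above all others. The interaction of Ccrl2 was 1.45 (SE 0.17, edgeR adjusted p = 0.011), from a log2 fold change of 1.68 in WT and 3.12 in T41B mice. Its within-batch differences were 1.64 in batch A and 1.16 in batch C.

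Daxx encodes a histone H3.3 chaperone and corepressor that resides in PML nuclear bodies. WT mice held 15.4, 13.7, 15.9 and 17.2 CPM in sham and 24.9, 19.5, 26.6 and 24.7 CPM in stimulated slices. T41B mice held 18.8, 20.2, 22.4 and 15.3 CPM in sham and 57.8, 70.1, 67.6 and 44 CPM in stimulated slices. Only the stimulated levels of Daxx separated the genotypes. The interaction was 1.01 (SE 0.10, edgeR adjusted p = 0.0065), from a log2 fold change of 0.62 in WT and 1.63 in T41B mice. Batch A gave a difference of 0.86 and batch C one of 0.97.

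Mmp14 encodes a membrane-anchored matrix metalloproteinase that activates secreted MMP2. Its sham levels overlapped, with 9.64, 9.20, 11.2 and 12.5 CPM in WT mice and 11.3, 13.3, 11.7 and 11.3 CPM in T41B mice. Stimulated slices held 20.1, 17.2, 22.9 and 21.8 CPM in WT mice and 45.1, 61.1, 44.2 and 34.5 CPM in T41B mice, without overlap. The Mmp14 interaction was 0.99 (SE 0.14, edgeR adjusted p = 0.0485), close to the threshold. Batch A gave 0.94 and batch C 0.78. For each of Malt1, Ccrl2, Daxx and Mmp14, the per-mouse differences of the genotypes did not overlap, and the exact two-sided permutation p was 0.0286, the smallest that 4 against 4 mice allow. The differences of 7.75% of all genes did not overlap either, and since these 4 genes were picked by the same interaction in the same mice, this p adds no support to their calls.

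These 4 calls rest on the pairing of slices and on single mice. Without the mouse as a block edgeR called 0 genes, with 665 genes at an unadjusted p under 0.05 in the larger and 525 in the smaller direction. Leaving out WT Mouse1513 also left 0 calls, at a smallest edgeR adjusted p of 0.0566, with 1155 and 798 genes at an unadjusted p under 0.05. Leaving out Mouse1522 ended the calls of Malt1, Ccrl2 and Mmp14, leaving out Mouse1509, Mouse1510 or Mouse1524 those of Ccrl2 and Mmp14, and leaving out Mouse1551 or Mouse1553 that of Mmp14. A batch by stimulation term ended all 4 calls, and batches A and C alone called Malt1 but not the other 3. The direction held in each of these settings: over 18 settings the interaction ran from 1.43 to 1.69 for Malt1, from 1.27 to 1.55 for Ccrl2, from 0.91 to 1.06 for Daxx and from 0.86 to 1.09 for Mmp14. DESeq2 called 60 genes with a larger and 22 with a smaller response in T41B mice, the 5 edgeR calls among them. Over the same 18 settings Malt1 was called in 13, Daxx in 12, Ccrl2 in 8 and Mmp14 in 3.

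**Figure D2:**
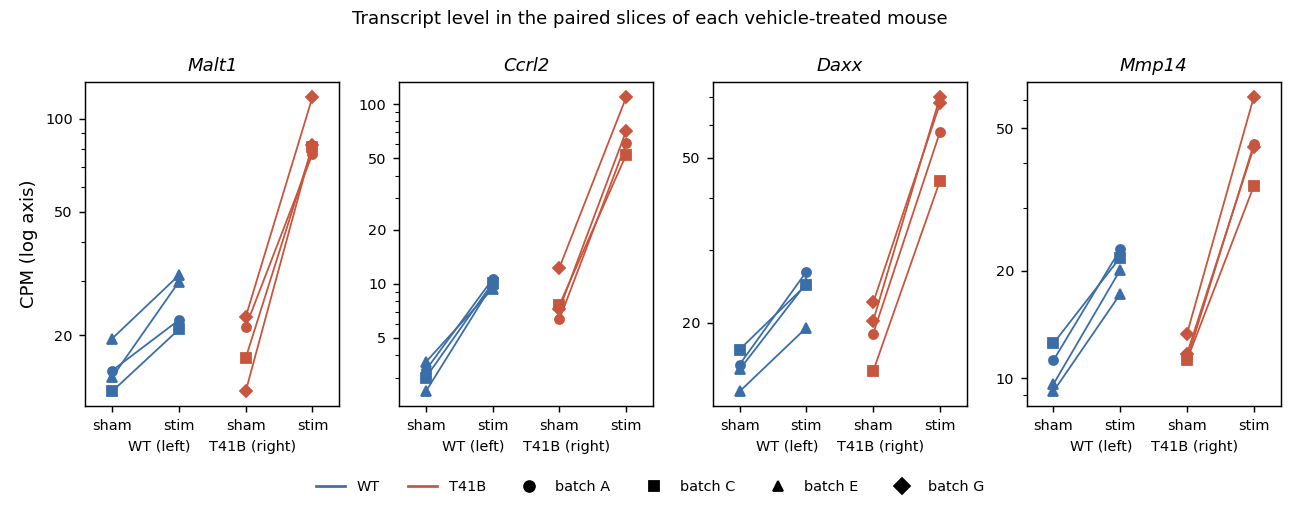
Transcript level (CPM, log axis) of Malt1, Ccrl2, Daxx and Mmp14 in the sham and stimulated slice of each mouse, joined by a line, with WT mice at the left of each panel, T41B mice at the right and marker shapes for batches. The lines of T41B mice are steeper in every panel, and every stimulated T41B slice lies above every stimulated WT slice, for example 34.5 to 61.1 against 17.2 to 22.9 CPM for Mmp14.

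Among the genes next in order with a larger response in T41B mice, none passed the test, and 8 that fill the naming rule shared an edgeR adjusted p of 0.0653. Pml encodes the scaffold of the nuclear bodies that hold the Daxx protein. Pml held 12, 11.7, 10 and 11.3 CPM in sham and 20.1, 17.5, 19.5 and 15.2 CPM in stimulated WT slices, and 13, 18.7, 13.1 and 12.3 CPM in sham and 44.6, 54.8, 51 and 33.3 CPM in stimulated T41B slices. Each T41B slice was above every WT slice of the same kind, by less in sham than in stimulated slices, with an interaction of 1.0 (SE 0.15) and within-batch differences of 0.81 and 0.97. Csf2rb2, a beta chain of the IL-3 receptor, had an interaction of 1.56 (SE 0.23), and its reads are uncertain because Csf2rb is a near-identical copy. Pik3r5, a regulatory subunit of the PI3-kinase of myeloid cells, had 0.88 (SE 0.13), and Znfx1, a helicase that senses viral RNA, had 0.83 (SE 0.13). The others were Ano1, a calcium-activated chloride channel (1.29), Rassf4, a Ras association domain protein (0.85), B4galt5, a galactosyltransferase of glycolipid synthesis (0.74), and Dcp2, an mRNA decapping enzyme (0.74). Dcp2 and B4galt5 had little response in WT mice, at log2 fold changes of 0.09 and 0.21, against 0.83 and 0.95 in T41B mice. For all 8 the per-mouse differences of the genotypes did not overlap, and both within-batch differences were positive. All T41B mice lay above all WT mice for 4.98% of all genes. Since these 8 were picked by the same interaction in the same mice, this adds no support to them.

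In the other direction no gene outside the choroid plexus list passed. Itga5, the alpha subunit of a fibronectin receptor, came nearest, with an interaction of -1.04 (SE 0.16, edgeR adjusted p = 0.0653). Itga5 held 4.91, 3.95, 7.68 and 5.73 CPM in sham and 30.6, 22.8, 28.8 and 25.1 CPM in stimulated WT slices. T41B slices held 19.2, 22.9, 14.9 and 18.1 CPM in sham and 42.7, 48.5, 39.5 and 45.5 CPM in stimulated slices. Itga5 was thus higher in every T41B than in every WT slice of the same kind, and sham T41B slices lay between the sham and most of the stimulated WT slices. Interactions were also negative for Tent5c, a poly(A) polymerase (-0.76), the tetraspanin Cd9 (-0.69), and Cd180, a receptor related to Toll-like receptors (-0.87). Their edgeR adjusted p-values ran from 0.115 to 0.169.

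The remaining genes in that direction differed in how the interaction arose. Ucp2, a carrier of the inner mitochondrial membrane, had a log2 fold change of 0.37 in WT and -0.37 in T41B mice. Hvcn1, a proton channel of phagocytes, had 0.79 and 0.09, and Rgs1, a regulator of G protein signaling, had 1.89 and 0.49. Cebpa, a transcription factor of myeloid cells, had 0.05 in WT and -0.59 in T41B mice. Klhl6, a ubiquitin ligase adaptor, had negative log2 fold changes in both genotypes, -0.99 in WT and -2.93 in T41B mice. Ppp1r3c, which targets a phosphatase to glycogen, had 0.84 and 0.32. The per-mouse differences of these 6 genes did not overlap between genotypes, and none passed the test (edgeR adjusted p from 0.142 to 0.191). These 6 too were picked by the same interaction, and all T41B mice lay below all WT mice for 2.77% of all genes. Krt18, a keratin of epithelia, had an interaction of -5.20, but its levels moved with those of the choroid plexus list: stimulated WT slices held 7.88 and 7.04 CPM in batch E and 0.257 and 0.722 CPM in batches A and C.

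Interferon-stimulated genes had 15 positive and 15 negative interactions among 30 tested genes on the fold scale, with a median of -0.03. On the log2(CPM + 1) scale all T41B mice lay above all WT mice for 10 of the 30 genes and below them for 0, against 4.98% and 2.77% of all genes, and limma gave a list median of 0.61. The per-mouse list medians on that scale did not overlap, at 2.15 to 2.55 in WT and 2.56 to 3.60 in T41B mice. At an unadjusted p under 0.05, 4 had a larger and 0 a smaller response in T41B mice, and none passed the adjusted test. Cmpk2, a mitochondrial nucleotide kinase induced by interferon, held 14, 10.9, 13 and 12.2 CPM in sham and 38.8, 31.6, 45.3 and 32.5 CPM in stimulated WT slices. T41B slices held 15.5, 27.1, 16.3 and 17.5 CPM in sham and 150, 209, 173 and 80.3 CPM in stimulated slices. The lowest stimulated T41B level of Cmpk2, in Mouse1579, was still above the highest stimulated WT level, and the interaction was 1.40 (SE 0.23, edgeR adjusted p = 0.0653). Ifit2, an RNA-binding antiviral protein, had 1.35 (SE 0.23, edgeR adjusted p = 0.0774), and Stat2, a signal carrier of the type I interferon receptor, had 0.80 (SE 0.20, edgeR adjusted p = 0.257). Leaving out T41B Mouse1579 brought Cmpk2, Ifit2 and Znfx1 past the threshold. Leaving out any other mouse did not, nor did batches A and C alone or the batch by stimulation term, while DESeq2 called all of them.

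The NF-kappaB list had a median of 0.04 over 19 tested genes, with 5 at an unadjusted p under 0.05 in the larger direction and 0 in the smaller. Over all genes these shares were 7.47% and 5.01%. Tnip1, a feedback inhibitor that binds ubiquitin chains, had an interaction of 0.36 (SE 0.10). Ikbkb, a catalytic subunit of the kinase that releases NF-kappaB, had 0.35 (SE 0.12), from -0.09 in WT to 0.27 in T41B mice. Ikbke, a related kinase that also acts toward interferon genes, had 1.11 (SE 0.38), from -0.11 to 1.0. None of the 19 passed, with edgeR adjusted p of 0.287 or more for these 3.

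Cytokines with little transcript in sham slices gave different pictures on the fold and the level scale. Il1b, a main inflammatory cytokine, held 0.236, 0.216, 0.437 and 0.340 CPM in sham and 58.2, 47.8, 23 and 72.2 CPM in stimulated WT slices. T41B slices held 0.621, 2.84, 3.66 and 0.259 CPM in sham and 258, 433, 362 and 384 CPM in stimulated slices. Stimulated levels did not overlap, but sham levels were also higher in 3 of the 4 T41B mice, and the interaction was 0.35 (SE 0.98, edgeR adjusted p = 0.896). Il12b, a subunit of IL-12 and IL-23, held 11.4, 12.3, 1.67 and 16.4 CPM in stimulated WT slices and 34.8, 58.5, 62.9 and 55.4 CPM in stimulated T41B slices, with an interaction of -1.63 (SE 1.16, edgeR adjusted p = 0.55). Il1rn, the IL-1 receptor antagonist, had 27.8 to 50.7 CPM in stimulated WT and 172 to 436 CPM in stimulated T41B slices, with -1.35 (SE 1.28, edgeR adjusted p = 0.657). The signs for these 2 genes turned on the log2(CPM + 1) scale, with limma differences of 1.94 for Il12b and 1.60 for Il1rn. Per-mouse differences of Il1b on that scale were larger in the T41B mouse by 3.26 in batch A and 2.48 in batch C.

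**Figure D3:**
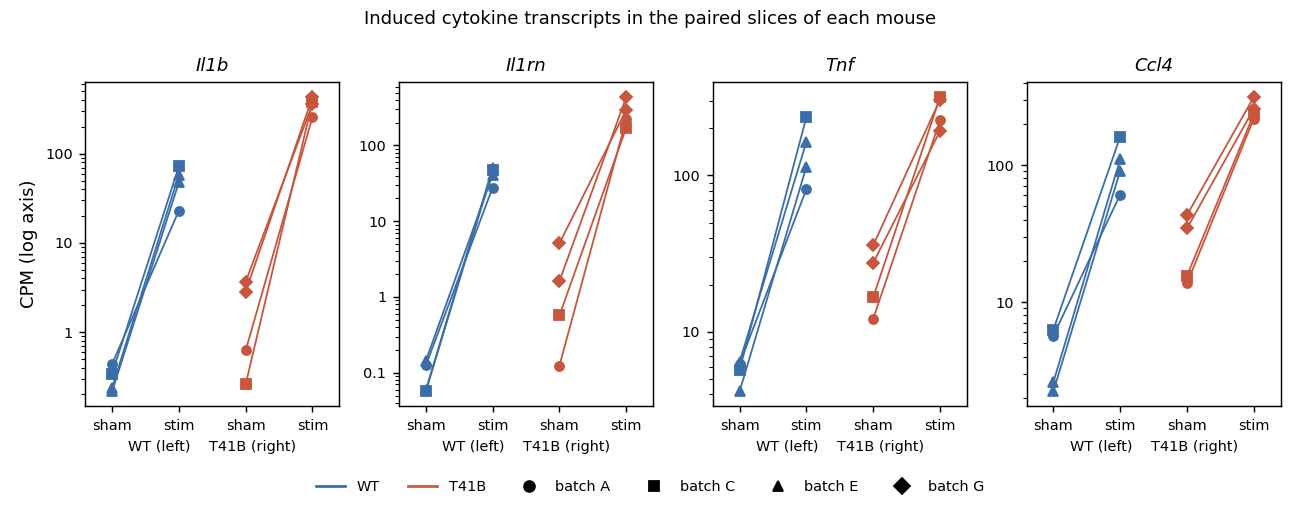
Transcript level (CPM, log axis) of Il1b, Il1rn, Tnf and Ccl4 in the paired slices of each mouse, drawn as in the plot of Malt1. Stimulated T41B slices lie above stimulated WT slices for Il1b and Il1rn, and in every panel the sham slices of both batch G mice lie above all other sham slices.

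Tnf, the tumor necrosis factor, held 6.44, 4.17, 6.24 and 5.73 CPM in sham WT slices and 12.1, 35.8, 27.6 and 16.6 CPM in sham T41B slices. Stimulated slices held 164, 114, 81.8 and 236 CPM in WT and 225, 305, 192 and 317 CPM in T41B mice, with overlap. The interaction of Tnf was -1.08 (SE 0.39, edgeR adjusted p = 0.349), and its within-batch differences had opposite signs, 0.59 in batch A and -0.97 in batch C. Il23a, the other subunit of IL-23, stayed at or below 0.184 CPM in stimulated WT slices and held 3.17, 5.49, 4.95 and 7.69 CPM in stimulated T41B slices. Its interaction was 3.94 (SE 1.26, edgeR adjusted p = 0.327), and limma on the log2(CPM + 1) differences called it. Csf3, the granulocyte growth factor, had 1.01 (SE 0.53, edgeR adjusted p = 0.433). Over the 14 tested cytokines of the IL-6, IL-10, IL-12, TNF and CSF groups the median was 0.05, with 1 gene in each direction at an unadjusted p under 0.05, and the 9 tested genes of the IL-1 family and receptors had a median of -0.23, with 1 and 0. The 1 gene in the latter list was Il18bp, the decoy that binds IL-18 (0.65, SE 0.22, edgeR adjusted p = 0.341). The former median was 0.53 by limma and -0.06 without Mouse1553, and the latter was 0.27 in batches A and C alone. For 7 of the 14 cytokines of the former list, and 0 in the other direction, all T41B mice lay above all WT mice on the log2(CPM + 1) scale, against 4.98% of all genes above and 2.77% below.

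The CC chemokine list held 1 called gene, Ccrl2, among 15 tested members, and had a median interaction of -0.34. At an unadjusted p under 0.05, 3 members had a larger and 5 a smaller log2 fold change in T41B mice. Ccl4, which attracts monocytes and T cells, held 2.60, 2.23, 5.68 and 6.29 CPM in sham and 110, 90.9, 60.9 and 161 CPM in stimulated WT slices. In T41B slices Ccl4 held 13.7, 43.1, 34.5 and 15.6 CPM in sham and 218, 314, 258 and 235 CPM in stimulated slices, above WT in both kinds of slice. Its interaction of -1.24 (SE 0.40, edgeR adjusted p = 0.335) came with within-batch differences of 0.69 and -0.64. Ccl9, a chemokine of myeloid cells, had -0.88 (SE 0.28, edgeR adjusted p = 0.329). The list median turned positive by limma on the log2(CPM + 1) scale, to 0.18, with differences of 1.85 within batch A and 1.11 within batch C. Per-mouse list medians on that scale were 1.16 to 1.55 in WT and 2.58 to 3.07 in T41B mice. All T41B mice lay above all WT mice for 4 of the 15 members and below them for 1, against 4.98% and 2.77% of all genes. Of 14 tested CXC and CX3C genes, 0 had a larger and 3 a smaller response at an unadjusted p under 0.05, among them Cxcl16, a membrane-bound chemokine (-0.56, SE 0.19), and Cxcr4, the receptor of CXCL12 (-0.92, SE 0.30).

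Toll-like receptors and their adaptors had a median of -0.07 over 17 tested genes, with 2 larger and 6 smaller responses at an unadjusted p under 0.05 and none past the adjusted test. Of all genes, 7.47% were larger and 5.01% smaller at that level. Tlr2, a receptor for bacterial lipopeptides, held 3.19, 3.67, 5.43 and 4.25 CPM in sham and 21.5, 21.7, 17.7 and 17.2 CPM in stimulated WT slices. T41B slices held 23.6, 58.8, 24.1 and 30.2 CPM in sham and 68.4, 101, 77.8 and 73.2 CPM in stimulated slices. Each sham T41B level of Tlr2 lay above every stimulated WT level, and the interaction was -0.92 (SE 0.25, edgeR adjusted p = 0.271). Tlr4, the lipopolysaccharide receptor, had -1.36 (SE 0.36), and Ticam1, an adaptor of TLR3 and TLR4, had -0.77 (SE 0.21).

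Plaque-associated microglia genes had, after the choroid plexus list, the largest share of members with a smaller response in T41B mice at an unadjusted p under 0.05, among the lists with at least 10 tested genes. Of 20 tested, 9 were smaller and 1 larger at that level, against 5.01% and 7.47% of all genes. Interactions were negative for 17, with a median of -0.39, although none of the 20 passed the adjusted test. Ctsd, the main aspartic protease of lysosomes, held 168, 156, 182 and 225 CPM in sham and 160, 152, 159 and 169 CPM in stimulated WT slices. T41B slices held 420, 752, 531 and 613 CPM in sham and 265, 511, 341 and 376 CPM in stimulated slices, so that each T41B mouse had less in its stimulated slice while staying above WT. The interaction of Ctsd was -0.46 (SE 0.10, edgeR adjusted p = 0.177). Gpnmb, a glycoprotein of phagocytes, had a log2 fold change of 0.87 in WT and -0.09 in T41B mice, and Cd63, a tetraspanin of late endosomes, had 1.19 and 0.84. The list median kept its sign in all 18 settings, from -0.43 to -0.31, and within batches it was -0.18 in A and -0.62 in C on the log2(CPM + 1) scale. Summed over the list, sham slices held 1487 to 2016 CPM in WT and 2409 to 3776 CPM in T41B mice.

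Homeostatic microglia genes had negative stimulation responses in both genotypes, with median log2 fold changes of -1.38 in WT and -1.68 in T41B mice over 12 tested genes. The median interaction was -0.22, 10 of the 12 values were negative, and 4 genes were at an unadjusted p under 0.05, all in the smaller direction, which held 5.01% of all genes. Over 18 settings this median kept its sign and ran from -0.28 to -0.14, the latter without WT Mouse1522. P2ry12, the ADP receptor that steers microglial processes, held 17, 23.6, 14.5 and 17.9 CPM in sham and 4.52, 5.66, 4.07 and 5.47 CPM in stimulated WT slices. T41B slices held 23.4, 31.5, 27 and 24.9 CPM in sham and 5.52, 5.66, 5.67 and 4.89 CPM in stimulated slices. The genotypes were apart before stimulation for P2ry12, except that the lowest T41B value lay just below the highest WT value, and overlapped after it, with an interaction of -0.41 (SE 0.14, edgeR adjusted p = 0.342). Gpr34, a receptor for lysophosphatidylserine, had -1.08 (SE 0.34), and Tmem119, a surface marker of microglia, had -0.86 (SE 0.38). The summed list lay within 534.6 to 897.6 CPM in sham and 266 to 354 CPM in stimulated T41B slices, and within 275.6 to 351 CPM and 127 to 182 CPM in WT slices.

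**Figure D4:**
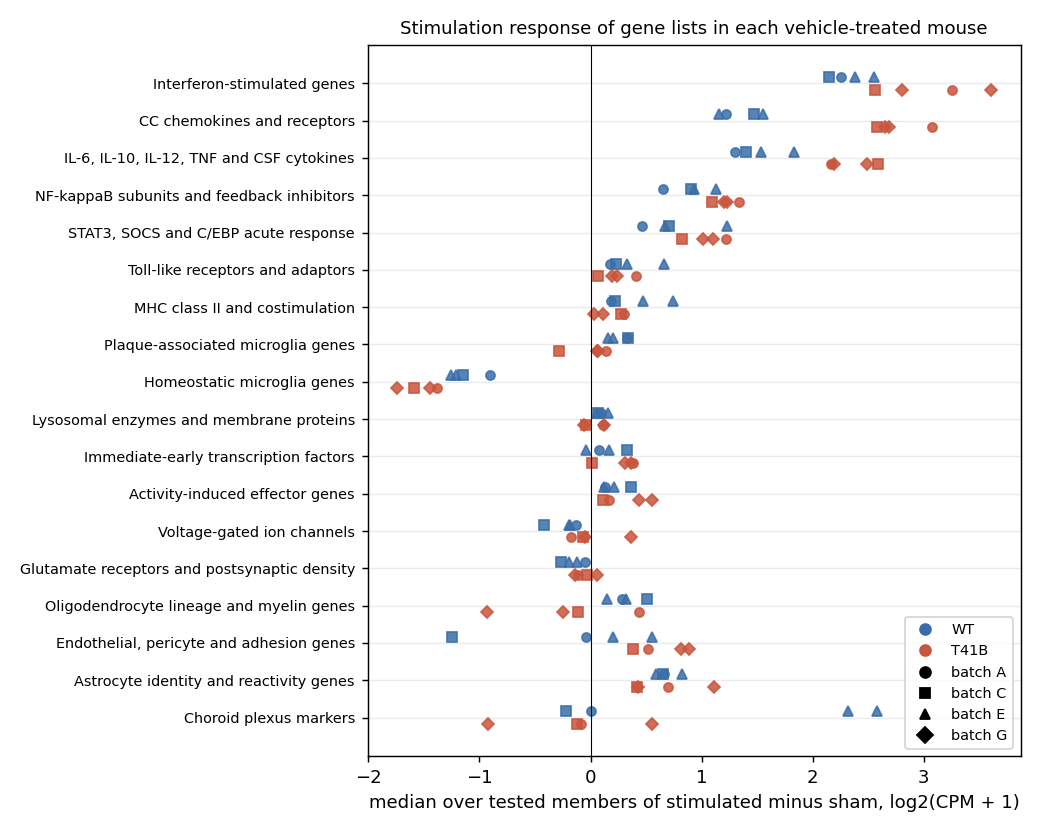
Median over the tested members of 18 gene lists of the difference between stimulated and sham slices, in log2(CPM + 1), with 1 point for each mouse, colors for genotypes and shapes for batches. Homeostatic microglia genes lie lower in all 4 T41B mice (-1.74 to -1.38) than in the 4 WT mice (-1.26 to -0.91), and in the choroid plexus list both WT mice of batch E stand alone above 2.

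MHC class II and costimulation genes were split, with 3 larger and 4 smaller responses at an unadjusted p under 0.05 among 12 tested genes and a median of -0.12. The smaller ones included the presenting molecules. Cd74, the invariant chain, held 3.67, 2.08, 1.87 and 2.44 CPM in sham and 7.74, 5.33, 3.00 and 5.65 CPM in stimulated WT slices, and 17.9, 156, 52.8 and 44.8 CPM in sham and 22, 52.6, 34.8 and 39.9 CPM in stimulated T41B slices. T41B Mouse1551 had the highest sham level and the largest gap between its slices. The interactions were -1.63 (SE 0.39, edgeR adjusted p = 0.229) for Cd74, -2.45 (SE 0.68, edgeR adjusted p = 0.286) for the alpha chain gene H2-Aa and -1.95 (SE 0.66, edgeR adjusted p = 0.342) for the beta chain gene H2-Eb1. Within batch A, Cd74 gave -0.19 and H2-Aa 0.17, and within batch C they gave -1.11 and -0.81. T, B and NK cell markers, summed, ran from 15.6 to 46.9 CPM in sham and from 7.49 to 13.1 CPM in stimulated T41B slices, against 6.18 to 15 CPM and 4.71 to 6.44 CPM in WT slices, and their part in the MHC values was not tested. MHC class I genes had a median of 0.15 over 12 tested genes, with 4 larger and 1 smaller at an unadjusted p under 0.05.

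Lysosomal genes followed the plaque list, with which they share Ctsd, Ctsb, Ctsz and Cd63. Of 21 tested, 7 had a smaller and 1 a larger response at an unadjusted p under 0.05, against 5.01% and 7.47% of all genes. Of the 21, 15 were negative, and the median was -0.13. Complement genes had a median of 0.00 over 15 tested members, with 0 larger and 1 smaller at that level, C3ar1, the receptor of the fragment C3a (-0.72, SE 0.17, edgeR adjusted p = 0.229). Fc receptor and Syk pathway genes had a median of -0.12 over 13 tested members, with 2 in each direction. Lyn, a Src family kinase of myeloid cells, was larger in T41B mice by 0.58 (SE 0.12, edgeR adjusted p = 0.177). Among 13 purine receptors and ectoenzymes the median was 0.18, or 0.04 without WT Mouse1524, with 2 larger and 1 smaller. Adora3, an adenosine receptor, went from -0.36 in WT to 1.33 in T41B mice (interaction 1.69, SE 0.37, edgeR adjusted p = 0.191).

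The matrix metalloproteinase list held the called Mmp14 among 18 tested genes, had a median of 0.00, and counted 3 larger and 1 smaller at an unadjusted p under 0.05. Mmp25, another membrane-anchored member, had an interaction of 2.20 (SE 0.53, edgeR adjusted p = 0.229) at a mean level of 1.0 CPM. Of 14 prostaglandin genes 2 were larger and 0 smaller, with a median of -0.07. Ptgs2, the inducible cyclooxygenase, is expressed by both neurons and myeloid cells. It held 23.6, 35, 50.7 and 26 CPM in sham and 131, 127, 90.8 and 86.3 CPM in stimulated WT slices, and 31.8, 27.2, 16.8 and 46.7 CPM in sham and 330, 627, 376 and 296 CPM in stimulated T41B slices. Sham levels of Ptgs2 overlapped and stimulated levels did not, with an interaction of 2.03 (SE 0.43, edgeR adjusted p = 0.185). Ptges, the inducible prostaglandin E synthase, had 0.85 (SE 0.29, edgeR adjusted p = 0.342). The within-batch differences of Ptgs2 were 2.51 in batch A and 0.94 in batch C.

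Socs3, the feedback inhibitor of IL-6 family signaling, had an interaction of 0.62 (SE 0.18, edgeR adjusted p = 0.30), and the 18 tested STAT3, SOCS and C/EBP genes had a median of 0.22 with 3 larger and 1 smaller at an unadjusted p under 0.05. Without Mouse1553 this median was 0.07. Antioxidant and metallothionein genes had a median of -0.14 over 17 tested members, with 2 larger and 4 smaller. Hmox1, heme oxygenase 1, had -1.14 (SE 0.32, edgeR adjusted p = 0.288), while Slc7a11, the cystine and glutamate exchanger, had 0.86 (SE 0.26, edgeR adjusted p = 0.314). Among 22 glycolysis, glucose transport and hypoxia genes 4 were larger and 1 smaller, with a median of -0.06. Hk2, an inducible hexokinase, had 0.78 (SE 0.18, edgeR adjusted p = 0.222), and Pfkfb3, which raises the main activator of glycolysis, had 0.52 (SE 0.12, edgeR adjusted p = 0.22). Abca1, a cholesterol exporter, had 0.70 (SE 0.18, edgeR adjusted p = 0.268) in a lipid list whose 22 tested genes had a median of 0.02. Inflammasome genes had a median of 0.25 over 10 tested members with 0 larger and 1 smaller, and a median of 0.11 without Mouse1551.

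No gene of the neuronal activity lists passed the test. Immediate-early transcription factors had a median interaction of 0.01 over 23 tested genes, with 2 larger and 2 smaller at an unadjusted p under 0.05. Klf2, a transcription factor also prominent in endothelium, went from -0.88 in WT to 0.05 in T41B mice (0.93, SE 0.21, edgeR adjusted p = 0.21). Fosl2, a partner of Jun proteins, had 0.50 (SE 0.16), and Atf3, a stress-induced factor, had -0.48 (SE 0.15). Activity-induced effectors had a median of 0.12 over 22 tested genes with 4 larger and 1 smaller. Vgf, a secreted neuropeptide precursor, held 182, 120, 171 and 208 CPM in sham and 168, 141, 193 and 228 CPM in stimulated WT slices, and 121, 77.8, 114 and 128 CPM in sham and 138, 136, 178 and 181 CPM in stimulated T41B slices. Its groups overlapped in stimulated slices, and the interaction was 0.43 (SE 0.13, edgeR adjusted p = 0.314). Bdnf, the neurotrophin that binds TrkB, had 0.49 (SE 0.22, edgeR adjusted p = 0.396), and Ntrk2, which encodes TrkB, had 0.27 (SE 0.11, edgeR adjusted p = 0.372). Of 10 MAP kinase phosphatases, Dusp2, which is prominent in immune cells, was the 1 gene at an unadjusted p under 0.05 (1.10, SE 0.34, edgeR adjusted p = 0.314).

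Voltage-gated ion channels stood out among the neuronal lists by the number of positive values, 23 of 24, with a median of 0.26 and 7 larger and 0 smaller responses at an unadjusted p under 0.05. Over all genes 51.1% of the interactions were positive, and 7.47% were larger and 5.01% smaller at that level. The median stimulation log2 fold change was -0.25 in WT and 0.00 in T41B mice. Per-mouse list medians on the log2(CPM + 1) scale were -0.41 to -0.13 in WT mice and -0.18, -0.05, 0.37 and -0.07 in T41B mice, so Mouse1510 lay inside the WT range and Mouse1553 was the 1 mouse above 0. The slices of Mouse1553 also differed most in myelin genes, from 10798 CPM in sham to 4012 CPM in stimulated, whose part in the channel values was not tested. Kcna4, a potassium channel of axons, held 66.9, 82.6, 66.2 and 50.6 CPM in sham and 62.3, 65.9, 54.2 and 39.3 CPM in stimulated WT slices, each mouse lower in its stimulated slice. T41B slices held 56.8, 62.9, 40.6 and 47.9 CPM in sham and 63.4, 62.4, 69.4 and 53.9 CPM in stimulated slices, with Mouse1553 changing most. The interaction of Kcna4 was 0.54 (SE 0.15, edgeR adjusted p = 0.291), and that of Kcnc1, a channel of fast-firing neurons, was 0.32 (SE 0.10, edgeR adjusted p = 0.318). The list median was 0.13 without Mouse1553 and kept its sign in all 18 settings, while the within-batch differences were -0.05 in A and 0.35 in C on the log2(CPM + 1) scale. Glutamate receptor and postsynaptic genes had a median of 0.09 with 3 larger and 0 smaller of 28, among them Grin1, the shared NMDA receptor subunit (0.28, SE 0.11), and Shank1, a postsynaptic scaffold (0.25, SE 0.09). GABAergic genes had a median of 0.06 with 1 larger of 21, and presynaptic genes one of 0.05 with 0 of 22 in either direction.

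Oligodendrocyte and myelin genes had negative interactions in 17 of 18 tested members, with a median of -0.49 and 0 larger and 5 smaller at an unadjusted p under 0.05. Of all genes, 7.47% were larger and 5.01% smaller at that level. Cldn11, a tight junction protein of myelin, had -0.58 (SE 0.24, edgeR adjusted p = 0.375). The difference was uneven over mice. T41B Mouse1553 had a list median of -0.93 between its slices, while T41B Mouse1510 had 0.44, inside the WT range of 0.15 to 0.51, and the within-batch differences were 0.15 in A and -0.62 in C. Summed over the list, the levels of all 4 groups overlapped, from 4279 to 6494 CPM in sham and 5383 to 9127 CPM in stimulated WT slices and from 5343 to 10798 CPM and 4012 to 9129 CPM in T41B slices. Whether the slices of a pair held equal amounts of white matter was not tested.

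Endothelial, pericyte and adhesion genes had the reverse sign, with a median of 0.73 over 20 tested members and 8 larger and 1 smaller responses at an unadjusted p under 0.05. These directions held 7.47% and 5.01% of all genes. Cdh5, the cadherin of endothelial junctions, held 16.6, 12.4, 18.5 and 14.3 CPM in sham and 82.9, 48.7, 40.3 and 7.40 CPM in stimulated WT slices, and 18.6, 12.3, 5.11 and 11.5 CPM in sham and 103, 90.6, 51.8 and 52.3 CPM in stimulated T41B slices. WT Mouse1524 was the 1 mouse whose stimulated slice held less Cdh5 than its sham slice. The interaction of Cdh5 was 1.45 (SE 0.55, edgeR adjusted p = 0.354). Esam, an adhesion molecule of the same junctions, had 1.06 (SE 0.35, edgeR adjusted p = 0.341), and Pdgfrb, the growth factor receptor of pericytes, had 0.76 (SE 0.21, edgeR adjusted p = 0.286). The list median of Mouse1524 was -1.24, against -0.04 to 0.55 in the other WT mice and 0.38 to 0.88 in T41B mice, and without this mouse the median interaction was 0.33. Its stimulated library was the one with the fewest genes detected.

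Astrocyte genes had a median of 0.01 over 20 tested members with 1 larger and 2 smaller at an unadjusted p under 0.05. Nes, an intermediate filament of reactive and immature astrocytes, had 0.45 (SE 0.12), whereas Vim and Gfap, the other filaments of reactive astrocytes, had -0.49 (SE 0.14) and -0.37 (SE 0.15), none past the adjusted test. Gfap ran from 305 to 397 CPM in sham and 518 to 674 CPM in stimulated WT slices, and from 1139 to 1976 CPM and 1497 to 2160.2 CPM in T41B slices. Heat shock and folding genes had 15 of 16 negative values with a median of -0.16 and 3 smaller responses. The 13 mitochondrially encoded genes had 12 negative values with a median of -0.17 and 2 smaller, among them mt-Nd3, a subunit of complex I (-0.35, SE 0.10). The most negative interaction of this list was -1.43. Proliferation genes had a median of -0.15 over 13 tested members with 0 larger and 1 smaller. Fn1, which encodes fibronectin and marks the subiculum among subfields, had 1.08 (SE 0.25, edgeR adjusted p = 0.22), while the 16 subfield markers had a median of 0.08. None of these genes passed the adjusted test.

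The genes with the largest stimulation responses were chosen over both genotypes. Of the 10 with the largest mean log2 fold change (Gm26244, Il1rn, Il1b, Il12b, Saa3, Slfn4, Mmp3, Il10, Ifi205 and Ccr7) and the 5 with the most negative one (P2ry13, Tmem119, Mlph, Crocc2 and Gpr34), none passed the test. P2ry13, a purine receptor of microglia, had a log2 fold change of -2.93 in WT and -3.80 in T41B mice, with an interaction of -0.87 (SE 0.44, edgeR adjusted p = 0.423). The per-mouse differences of P2ry13 did not overlap, at -1.24 in WT Mouse1522, between -2.34 and -2.25 in the other WT mice and lower in each T41B mouse. All T41B mice lay below all WT mice for 2.77% of all genes.

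Choroid plexus transcripts are set apart because their levels differed between the slices of a pair in batches E and G, which each hold 1 genotype. The choroid plexus is the epithelium that makes cerebrospinal fluid, and it lies against the hippocampus in the ventricle. All 18 tested genes of the list had a negative interaction, with a median of -2.46 and 14 at an unadjusted p under 0.05, against 5.01% of all genes in that direction. Ttr, which encodes the thyroxine carrier transthyretin and is the defining transcript of this epithelium, held 0.177 and 0.863 CPM in sham and 1070 and 876 CPM in stimulated slices of the WT mice of batch E. In the T41B mice of batch G it held 91 and 458 CPM in sham and 253 and 91 CPM in stimulated slices. In batches A and C it stayed at or below 2.18 CPM in all 8 libraries, with 0 CPM in 2 of them. Slc4a5, a bicarbonate transporter, was the gene past the threshold, with an interaction of -6.95 (SE 0.73, edgeR adjusted p = 0.0065).

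Slc4a5 held 0.118 and 0.144 CPM in sham and 12.9 and 12.5 CPM in stimulated slices in batch E, 1.03 and 3.35 CPM in sham and 1.91 and 1.11 CPM in stimulated slices in batch G, and at most 0.601 CPM in batches A and C. Its per-mouse differences overlapped between genotypes, with an exact two-sided permutation p of 0.0571, and leaving out Mouse1509 or Mouse1513 ended its call. The summed list went from 155 to 2089 CPM in Mouse1509 and from 186 to 1727 CPM in Mouse1513, from 389 to 696 CPM in Mouse1551 and from 868 to 361 CPM in Mouse1553. In the 4 mice of batches A and C it ran from 155 to 243 CPM in all slices. With only these 4 mice the median interaction of the list was 0.04 and that of Ttr was 1.87. Genotype and batch cannot be told apart in batches E and G. Removing the list before scaling left Malt1, Ccrl2 and Daxx called, while Mmp14 no longer passed.

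**Figure D5:**
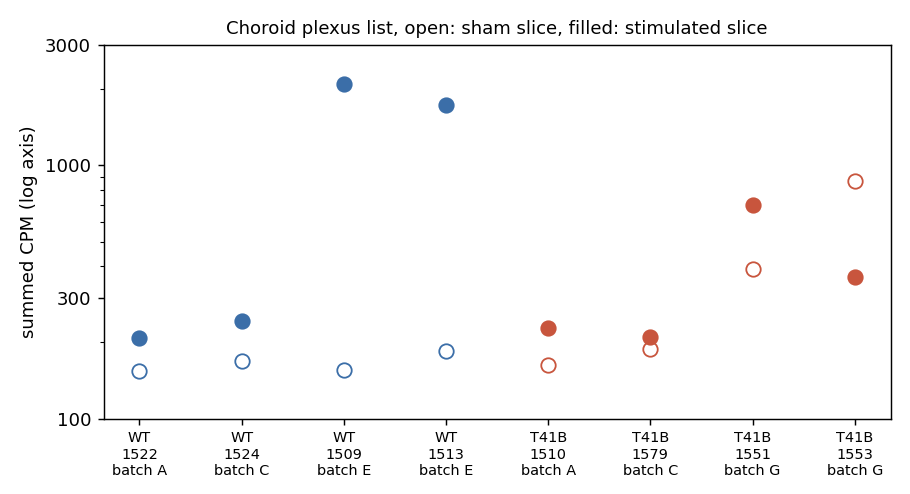
Summed CPM of the choroid plexus list (log axis) in the sham slice (open) and stimulated slice (filled) of each mouse, with genotype, mouse number and batch under each pair. Both stimulated WT slices of batch E stand at 1727 and 2089 CPM, the batch G slices lie between 361 and 868 CPM, and all slices of batches A and C lie at or below 243 CPM.

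Markers of other cells that a slice could carry were summed as well. Ependymal and cilia genes, the lining of the same ventricle, had 10 of 10 negative interactions with a median of -0.94 and 3 at an unadjusted p under 0.05, and their summed level was highest, at 49.3 CPM, in a sham T41B slice. Meningeal and fibroblast genes had a median of 0.27, which turned to -0.09 without Mouse1553, and summed levels of 71.7 to 129 CPM over all 16 libraries. None of the 13 neutrophil and monocyte markers had enough counts to be tested, and together they summed to at most 1.13 CPM in any library. Border macrophage markers summed to 0.782 to 7.18 CPM, and red blood cell genes to 65.9 to 195 CPM with groups that overlapped. The part of these cells in the interaction was not tested.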

How the data were processed

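RNA of hippocampal slices was sequenced from ribosome-depleted, stranded libraries made from 200 ng of total RNA, per the labels' protocols. The authors deposited expected counts from RSEM, estimates of the reads of each gene that carry no scaling between libraries, and 5.69% of the cells held decimals. The submitters' processing notes name cutadapt 1.8.1, STAR 2.7.6a, RSEM 1.3.1, featureCounts 1.6, SAMtools 1.11 and the builds GRCm38.p6 and mm10. Their roles, the annotation release and whether counting used strand are not given in the sources used here, so counts of overlapping, antisense and near-identical genes are uncertain. Symbols matched 55154 of 55421 identifiers.

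The expected counts of the 16 vehicle libraries were rounded. Genes were kept by filterByExpr (minimum count 10, 4 groups), scaled by TMM and tested with edgeR 4.0.16 (R 4.3.3): quasi-likelihood F test, mouse as block, with a stimulation coefficient for each genotype and their difference as the interaction. P-values were adjusted by Benjamini-Hochberg over all 18513 genes and called under 0.05. SE is that of the log2 fold change. CPM use TMM-adjusted library sizes, and per-mouse differences are log2(CPM + 1) of the stimulated minus the sham slice. The pairing comes from mouse numbers in the labels, since both slices of a pair are from 1 animal. The deviations of paired slices from their group means correlated at r = 0.30 on average (7 of 8 pairs above 0.1). The mean of -0.10 for 24 pairs of different mice follows largely from subtracting the group means, so it is no separate comparison.

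Members, gene lists and tests were chosen with earlier results of these data known, so lists are described by counts and medians with no test. Named genes were called genes, filled to 12 in each direction by smallest p among genes averaging at least 1 CPM with the choroid plexus list left out, the 10 largest and 5 most negative mean responses, and from each list its called members and the 3 of smallest p. Some genes that the rule names are not reported here. The promoter motif and the genes whose levels are printed in every library were picked within these after values had been seen. On simulated counts with 200 changed genes of 18513, 68% were recovered for an interaction of log2 1 and 93% for log2 2, with 9.33% and 6.06% of calls false. The changed genes were drawn from those averaging at least 1 CPM, and the simulated response did not differ between batches. These shares therefore do not give the recovery in the real libraries. Alternatives were edgeR without the mouse block, a fit of all libraries, RLE scaling, DESeq2 1.42.0, limma 3.58.1, no filter on low counts, a pseudocount of 0.1, batches A and C alone, a batch by stimulation term, removal of the choroid plexus list, each mouse left out, and a fit of both treatments added after seeing the data. The libraries of mice given BD10-2 were used only in the 2 fits that name all libraries or both treatments.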

Additional observations from a re-analysis of the deposited data

Results flagged for a closer look

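The response of 5 genes differed between the genotypes by edgeR's interaction test: Malt1 by 1.55, Ccrl2 by 1.45, Daxx by 1.01, Mmp14 by 0.99 and Slc4a5 by -6.95 on the log2 scale, T41B minus WT. Slc4a5 is a choroid plexus gene that was high in the stimulated WT slices of batch E, where genotype and batch cannot be told apart. It ran from -7.80 to -2.20 and was called in 10 of 16 settings, while Mmp14 was called in 3 of 18.

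Dixon's test at the 95% level marked 1 mouse as standing apart in 11 of 274 groups of 4 per-mouse differences, log2(CPM + 1) of stimulated minus sham slice. Chance marks about 1 in 20 groups. T41B Mouse1579 stood apart for Ccrl2 (2.63 against 3.05 to 3.13 in the other T41B mice), Tent5c (0.19 against 0.53 to 0.58), Gpnmb (-0.50 against 0.02 to 0.09) and Hk2 (1.88 against 2.43 to 2.51). For Ccrl2 the value that stood apart was the T41B value nearest to WT. WT Mouse1524 stood apart for Ticam1 (0.11 against 0.75 to 0.82) and Lyn (0.67 against 0.40 to 0.44), WT Mouse1522 for P2ry13 (-1.24 against -2.34 to -2.25) and WT Mouse1513 for Atf3 (0.45 against 0.80 to 0.84). T41B Mouse1553 stood apart for B4galt5 (1.28 against 0.78 to 0.85), T41B Mouse1551 for Tnip1 (1.20 against 1.12 to 1.13), and T41B Mouse1510 for the median of the Fc receptor and Syk list (0.09 against -0.20 to -0.16).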

How the results depend on the processing

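The counts of calls depended strongly on the setting, at 4 genes higher and 1 lower in the fit reported. The fit with no replicate block called 0 higher and 0 lower, and so did the fit of all libraries in 8 groups without the block (646 higher and 1037 lower at an unadjusted p under 0.05). DESeq2 called 60 and 22, limma on the per-mouse differences 25 and 2, and no filter on low counts 244 and 132 of 34499 genes. Batches A and C alone called 4 and 4, the batch by stimulation term 1 and 1, removal of the choroid plexus list 3 and 0, and both treatments with the block 1 and 2. Leaving out each mouse gave 0 to 9 higher and 0 to 3 lower. Of Malt1, Ccrl2, Daxx and Mmp14, batches A and C alone called Malt1, and Slc4a5 was not tested there. The batch term called none of the 5, but Helz2 and Pagr1a. The causes were not tested, beyond the fewer mice in some fits.

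The direction of 4 named genes turned. Il1rn gave 1.60 with limma, 0.38 in batches A and C and 0.23 with the batch term. Il12b gave 1.94, 0.54 and 1.28 in these, and Ttr gave 1.87 in batches A and C and 0.96 with the batch term. Il1b gave -0.11 without Mouse1522 and -0.070 without Mouse1579. Of 1702 values of 95 named genes over 18 settings, 1551 kept direction and side of the threshold, 99 gained the threshold, 42 lost it and 10 turned. Of the 95, 84 had both within-batch differences in the direction of the pooled log2(CPM + 1) difference, which for Il1rn and Il12b is opposite to the edgeR interaction. The mice of batches A and C are part of the pooled difference, and many of these genes were picked by a small interaction p. The count of 84 is therefore no separate support, and the same share over all genes was not computed. List medians of the interferon and CC chemokine genes changed sign with limma, to 0.61 and 0.18. Those of other lists, among them IL-1, CXC, complement, metalloproteinase, both MHC, Fc receptor, immediate-early, activity-induced, GABAergic, presynaptic and astrocyte genes, also changed sign in at least 1 setting. With 4 mice a genotype, some genes with sham levels near 0 had large errors of the interaction, as Il1b did (SE 0.98).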
